A study of Mus musculus with 55 samples.

Results

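A set of 9 genes that PPAR receptors switch on when fatty acids are plentiful were followed through infarcts of type 1 diabetic, type 2 diabetic and non-diabetic mice: Pdk4, Angptl4, Cpt1a, Ucp3, Acot1, Acot2, Plin5, Cd36 and Fabp3. The 9 genes had been listed by symbol, and all 9 were found by Ensembl identifier among the 56941 genes of the day 7 count table and the 57186 of the day 28 table. All 9 passed the low-count filter on both days. The list was drawn up with earlier results of these data known.

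RNA had been taken from the left ventricular infarct of C57BL/6J mice after permanent ligation of a coronary artery, and poly(A) libraries had been sequenced. The day 7 set comprised 8 type 1 diabetic, 8 type 2 diabetic and 8 non-diabetic libraries, and the day 28 set comprised 10 type 1 diabetic, 10 type 2 diabetic and 11 non-diabetic ones. The library names carry hi STZ for the type 1 diabetic group, lo STZ with HFFD for the type 2 diabetic group and Ctrl for the non-diabetic group. The labels do not spell these out, give no age or sex, and do not say whether replicates were separate animals, so p-values here reflect only library-to-library spread, part of which may be technical. Every group had an infarct, so no level here is that of an uninjured heart, and the tissue was bulk infarct, so fewer cells of a type and less RNA per cell cannot be told apart. Day 7 and day 28 were sequenced as separate projects, and the effect of day cannot be told apart from that of the project.

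PPARα, PPARβ/δ and PPARγ are nuclear receptors that bind fatty acids, pair with a retinoid X receptor and turn on genes for taking up, storing and burning fat. In cardiac muscle, PDK4 phosphorylates the pyruvate dehydrogenase complex and so holds back glucose oxidation, and ANGPTL4 is a secreted inhibitor of lipoprotein lipase, the enzyme that frees fatty acids from circulating triglyceride. CPT1A is the liver-type form of the enzyme that admits long-chain fatty acids to mitochondria, UCP3 is a mitochondrial carrier of the inner membrane, and ACOT1 and ACOT2 are the cytosolic and mitochondrial thioesterases that release fatty acid from acyl-CoA. PLIN5 coats lipid droplets and ties them to mitochondria, CD36 carries fatty acid across the plasma membrane and FABP3 carries it through the cytosol of heart muscle.

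The promoters of 3 of the genes that moved together at day 28 are shown because they can be read for the half-site AGGTCA, the letters that PPAR and its partner recognise. Each is the 250 bases before the gene's annotated start from RefSeq on GRCm38.p6, 5′ to 3′ on the gene's own strand, with any AGGTCA or its reverse complement TGACCT in capitals. They are Pdk4 at chr6:5496279-5496528 on the minus strand, Cpt1a at chr19:3323051-3323300 on the plus strand and Ucp3 at chr7:100472741-100472990 on the plus strand.
Pdk4: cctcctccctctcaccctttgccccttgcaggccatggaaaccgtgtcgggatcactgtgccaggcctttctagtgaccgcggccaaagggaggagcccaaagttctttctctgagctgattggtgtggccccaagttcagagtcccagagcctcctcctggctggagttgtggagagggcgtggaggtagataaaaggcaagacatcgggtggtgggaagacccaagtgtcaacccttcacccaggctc
Cpt1a: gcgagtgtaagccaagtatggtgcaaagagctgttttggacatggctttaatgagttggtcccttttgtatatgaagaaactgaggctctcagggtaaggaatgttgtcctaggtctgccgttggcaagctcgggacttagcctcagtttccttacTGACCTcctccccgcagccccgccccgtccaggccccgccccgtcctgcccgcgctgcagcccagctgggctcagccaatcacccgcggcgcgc
Ucp3: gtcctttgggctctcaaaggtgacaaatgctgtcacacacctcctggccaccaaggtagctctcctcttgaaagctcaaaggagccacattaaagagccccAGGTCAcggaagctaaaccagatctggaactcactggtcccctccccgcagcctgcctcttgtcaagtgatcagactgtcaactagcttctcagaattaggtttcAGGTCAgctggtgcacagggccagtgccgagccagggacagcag
Ucp3 held 2 half-sites, starting 149 and 44 bases before its start, Cpt1a held 1 on the other strand at 94 bases, and Pdk4 held 0. Over all 32851 promoter windows of this length, 14% held at least 1 AGGTCA on either strand. Of the 8 members in the promoter table, Cd36 and Plin5 also held 1. The paired motif AGGTCANAGGTCA, which contains the half-site, was in 0.0335% of all windows, its looser form AGGNCANAGGNCA in 0.338%, and the forkhead letters TGTTTAC in 3.17%. None of these 3 was in the window of any of the 8 members. Angptl4 had no entry, so its promoter was not read. A match is a description of letters, and the lack of one covers only these 250 bases.

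Levels were compared between genes as RPKM, counts scaled to exon length and library size. In non-diabetic infarcts at day 28, mean RPKM was 1644 ± 424 for Fabp3, 282 ± 66.7 for Cd36 and 62.8 ± 18.6 for Pdk4 (SD, n = 11). It was 33.0 ± 9.18 for Plin5, 13.2 ± 3.76 for Acot2 and 8.71 ± 0.859 for Cpt1a. Angptl4 and Ucp3 followed at 3.73 ± 1.99 and 3.73 ± 1.97, and Acot1 was lowest at 0.808 ± 0.243. Angptl4 and Ucp3 did not differ in this order beyond their spread. In type 1 diabetic infarcts at day 28, Pdk4 reached 234 ± 77.7 RPKM and Angptl4 19.6 ± 5.6 RPKM (SD, n = 10), so that Angptl4 stood beside Acot2, at 20.2 ± 7.79, and Cpt1a, at 14.8 ± 2.14, with spreads that overlap. Reads of Acot1, Acot2 and Fabp3 are uncertain where copies are near-identical. Of all 75-base windows of their transcripts, 20.45% of Acot2 and 11.19% of Acot1 are shared between these 2 genes, and 24.3% of Fabp3 is shared with the pseudogene Fabp3-ps1, whose own median stayed between 1.05 and 4.45 CPM in all groups.

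Libraries held 10756242 to 51158036 counts at day 7 and 48105347 to 92869315 counts at day 28. All 20 cardiomyocyte markers were present in every group, so the infarct samples held cardiac muscle RNA, in varying amount. Whether it came from within the infarct or from tissue beside it was not tested. Their summed level ran in CPM, counts scaled to library size, from 3134 to 27418 in type 1 diabetic, 8351 to 29819 in type 2 diabetic and 11353 to 40289 in non-diabetic infarcts at day 7. At day 28 it ran from 45661 to 75204, from 15454 to 84635 and from 43095 to 90125 CPM in the same groups. Type 1 diabetic replicate 4 of day 7 and type 2 diabetic replicate 4 of day 28 stood apart, with the lowest cardiomyocyte sum of their group and the highest B cell sum, 3907 and 7259 CPM. The first of them also had the highest adipocyte sum of day 7, 985 CPM. Skeletal muscle markers, summed, ran at day 28 from 4.13 to 2772 CPM in type 1 diabetic, 3.53 to 1673 in type 2 diabetic and 3.42 to 1778 in non-diabetic infarcts.

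**Figure D1:**
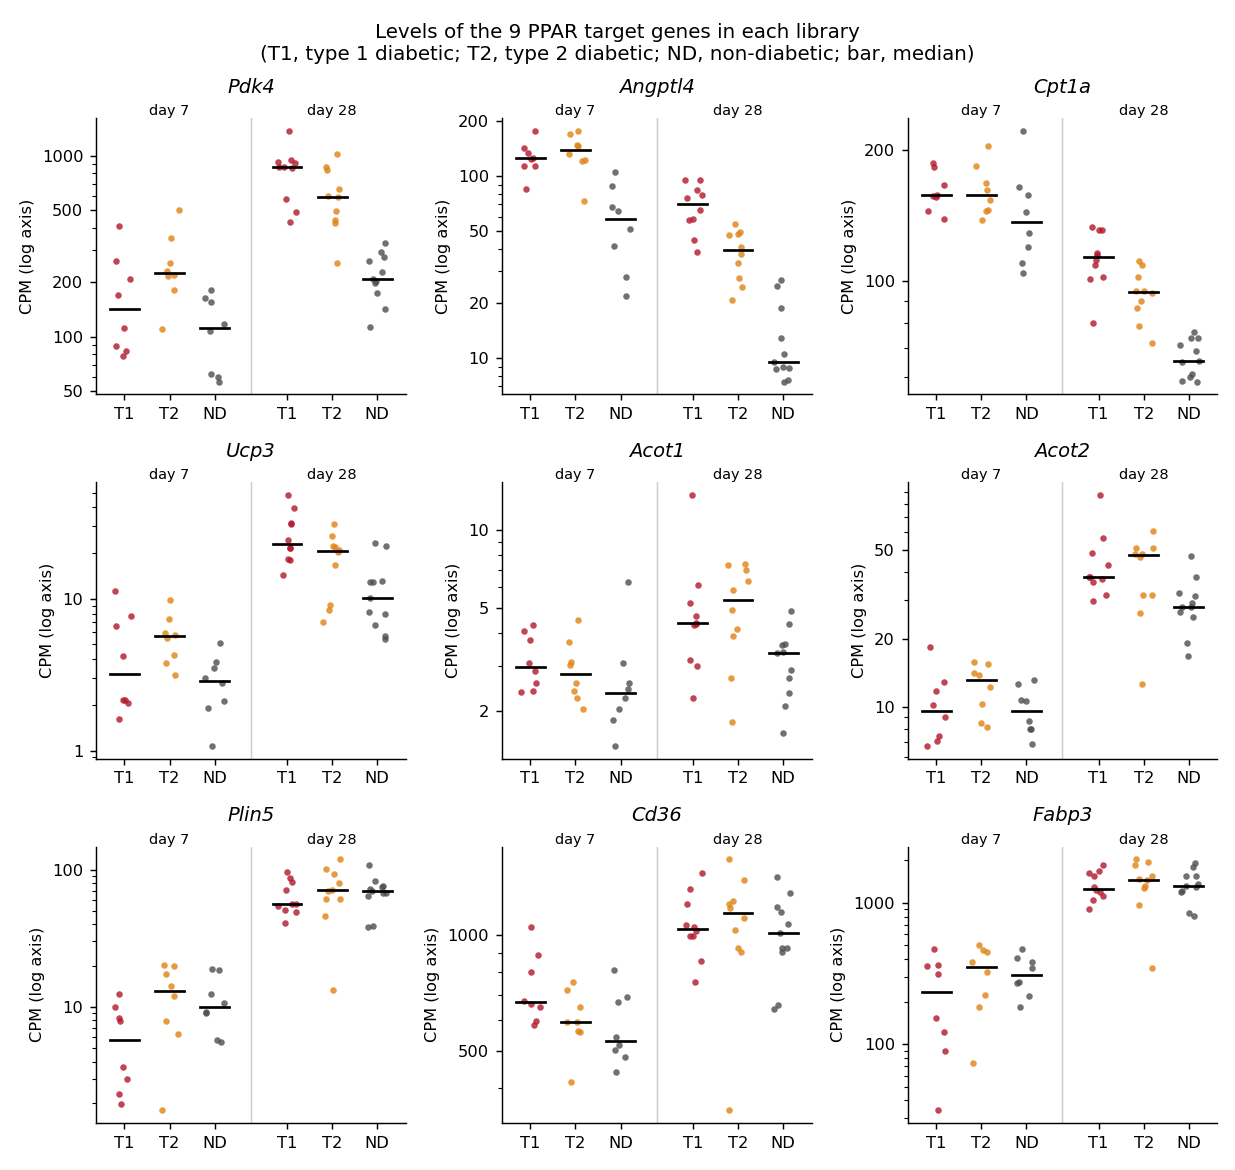
Level of each of the 9 genes in every library, in CPM on a log axis, for type 1 diabetic (T1), type 2 diabetic (T2) and non-diabetic (ND) infarcts at day 7 (left of each panel) and day 28 (right); bars are medians. At day 28 the type 1 diabetic libraries of Pdk4, Angptl4 and Cpt1a lie above every non-diabetic library, while Plin5, Cd36 and Fabp3 overlap throughout.

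At day 28, 4 of the 9 genes rose in type 1 diabetic against non-diabetic infarcts: Pdk4, Angptl4, Cpt1a and Ucp3. A rise passed edgeR's quasi-likelihood test for 2.6% of all genes tested in this comparison, and a change in either direction for 4.02%. The median log2 fold change of the 9 genes was 0.69, against 0.00 over all genes.

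Angptl4 had a lowest, median and highest level of 38.5, 70.5 and 95.3 CPM in type 1 diabetic infarcts, against 7.42, 9.55 and 26.8 CPM in non-diabetic infarcts. The groups did not overlap, and most non-diabetic libraries lay close to their lowest value. The fold was 5.25, a log2 fold change of 2.39 (SE 0.238, adjusted p = 2.37e-07, edgeR quasi-likelihood F test, Benjamini-Hochberg adjusted over all genes, as for every adjusted p given here unless another tool is named).
Pdk4 was the most abundant of the 4, at 429, 864 and 1373 CPM in type 1 diabetic against 113, 208 and 328 CPM in non-diabetic infarcts. Again every diabetic library lay above every non-diabetic one. Its log2 fold change was 1.90 (SE 0.216, adjusted p = 2.14e-06).
Cpt1a moved less but with little spread: 80.1, 114 and 133 CPM in type 1 diabetic against 58.5, 65.2 and 76.4 CPM in non-diabetic infarcts, again without overlap. Its log2 fold change was 0.76 (SE 0.08, adjusted p = 5.41e-07). Over all genes, 0.143% had every type 1 diabetic library above every non-diabetic library at day 28, and 3 of the 9 did.

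Ucp3, at 14.4, 23.1 and 48.4 CPM in type 1 diabetic against 5.41, 10.1 and 23.3 CPM in non-diabetic infarcts, overlapped between the groups, because 2 non-diabetic libraries reached 22.4 and 23.3 CPM. All 10 diabetic libraries still lay above the non-diabetic mean, and the log2 fold change was 1.20 (SE 0.279, adjusted p = 0.0114). Skeletal muscle also expresses Ucp3, and the library highest in Ucp3, type 1 diabetic replicate 2, was the highest in skeletal muscle markers. The next type 1 diabetic library, replicate 4 at 39.5 CPM, had a skeletal muscle sum of 9.81 CPM. The 2 non-diabetic libraries at 22.4 and 23.3 CPM of Ucp3, replicates 5 and 11, had sums of 1778 and 373 CPM, against a median of 46.1 CPM in their group. All 8 skeletal muscle markers had positive fold changes with a median log2 value of 1.27, and 0 of 8 passed in edgeR, DESeq2 or limma-voom or had an unadjusted p under 0.05. Without replicate 2 the Ucp3 log2 fold change was 1.07 (adjusted p = 0.0269), and with the skeletal muscle marker mean in the fit it was 1.18 (adjusted p = 0.0071). Replicate 2 was also the highest type 1 diabetic library for Pdk4 and Angptl4. Without it their log2 fold changes were 1.79 (adjusted p = 6.27e-06) and 2.33 (adjusted p = 8.51e-07).

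The thioesterases had positive fold changes in type 1 diabetic infarcts at day 28 without passing in edgeR, while limma-voom called Acot2 (0.53, adjusted p = 0.0272). Acot2 had 29.7, 37.7 and 87.7 CPM in type 1 diabetic against 16.9, 27.9 and 46.9 CPM in non-diabetic infarcts, a log2 fold change of 0.61 (SE 0.21, adjusted p = 0.0931). Acot1 had 2.26, 4.35 and 13.6 CPM in type 1 diabetic against 1.65, 3.36 and 4.86 CPM in non-diabetic infarcts, a log2 fold change of 0.69 (SE 0.258, adjusted p = 0.125). Replicate 2 was the highest type 1 diabetic library for both. Acot2 passed (adjusted p = 0.0418) when type 2 diabetic replicate 4 was left out of the shared fit. The genes for the lipid-handling proteins of cardiac muscle overlapped between the groups, and log2 fold changes were -0.10 for Plin5 (SE 0.228), 0.08 for Cd36 (SE 0.168) and 0.001 for Fabp3 (SE 0.198), with adjusted p of 0.851, 0.841 and 0.998.

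In type 2 diabetic against non-diabetic infarcts at day 28, Pdk4, Angptl4 and Cpt1a rose, 3 of the 9 genes. A rise passed the test for 7.21% of all genes and a change in either direction for 10.7%. The median log2 fold change of the 9 was 0.49, against 0.00 over all genes. Angptl4 had 21, 39.3 and 54.9 CPM in type 2 diabetic infarcts, against 7.42, 9.55 and 26.8 CPM in non-diabetic infarcts. All 10 diabetic libraries exceeded the non-diabetic mean, although the ranges met, and the log2 fold change was 1.54 (SE 0.232, adjusted p = 3.92e-05). Pdk4 had 254, 591 and 1021 CPM in type 2 diabetic against 113, 208 and 328 CPM in non-diabetic infarcts, a log2 fold change of 1.48 (SE 0.213, adjusted p = 1.99e-05). Its lowest diabetic library was replicate 4, the one that stood apart, and without it the value was 1.57, with 1.49 for Angptl4 and 0.45 for Cpt1a. Cpt1a had 71.8, 94.2 and 111 CPM in type 2 diabetic against 58.5, 65.2 and 76.4 CPM in non-diabetic infarcts, a log2 fold change of 0.49 (SE 0.0799, adjusted p = 0.000117).

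Ucp3, Acot1 and Acot2 did not pass in edgeR in type 2 diabetic infarcts at day 28, while DESeq2 called Acot1 (0.69, adjusted p = 0.0488) and limma-voom called Acot2 (0.55, adjusted p = 0.0327). In edgeR their log2 fold changes were 0.65 (SE 0.278, adjusted p = 0.132), 0.70 (SE 0.259, adjusted p = 0.081) and 0.48 (SE 0.21, adjusted p = 0.141). Ucp3 ran from 7.02 to 31.1 CPM in type 2 diabetic and from 5.41 to 23.3 CPM in non-diabetic infarcts. Acot2 ran from 12.7 to 60.7 CPM in type 2 diabetic and from 16.9 to 46.9 CPM in non-diabetic infarcts, with its lowest value in replicate 4. Without that library Acot2 passed, at 0.58 (adjusted p = 0.0476), and Acot1 passed without type 2 diabetic replicate 3, at 0.80 (adjusted p = 0.0365), or type 1 diabetic replicate 2, at 0.70 (adjusted p = 0.0347). Plin5, Cd36 and Fabp3 had log2 fold changes of 0.05, 0.10 and 0.07, with adjusted p from 0.746 to 0.911, and replicate 4 was again the lowest type 2 diabetic library for each.

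Both comparisons at day 28 use the same non-diabetic libraries, so their direct contrast is needed to say where the forms of diabetes differ. Angptl4 was higher in type 1 than in type 2 diabetic infarcts, at 38.5, 70.5 and 95.3 CPM in type 1 diabetic against 21, 39.3 and 54.9 CPM in type 2 diabetic infarcts. All 10 type 1 diabetic libraries lay above the type 2 diabetic mean, and the log2 fold change was 0.85 (SE 0.235, adjusted p = 0.04). It was the only one of the 9 to pass, where 3.21% of all genes changed in either direction and 1.19% rose. Cpt1a came next at 0.28 (SE 0.0818, adjusted p = 0.0533), and passed without type 2 diabetic replicate 4, 6 or 10 or type 1 diabetic replicate 10, with values from 0.29 to 0.32, while Pdk4 and Ucp3 had 0.42 (SE 0.216, adjusted p = 0.332) and 0.55 (SE 0.284, adjusted p = 0.33). The Angptl4 call was lost in 10 of 31 fits that left out 1 library, with adjusted p from 0.0237 to 0.08 over all of them: those without type 1 diabetic replicate 1, 2, 5, 6, 7 or 8 or type 2 diabetic replicate 2, 7, 8 or 9. It was lost as well without the low-count filter (adjusted p = 0.0562). It was also lost with the skeletal muscle marker mean in the fit, at 0.80 (adjusted p = 0.0604).

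At day 7, Angptl4 rose in type 1 diabetic against non-diabetic infarcts. That was 1 of the 9 genes, where a rise passed for 11.1% of all genes and a change in either direction for 22.5%, so the count was at the level of all genes. Angptl4 had 85.0, 126 and 178 CPM in type 1 diabetic against 22.1, 57.9 and 105 CPM in non-diabetic infarcts. All 8 diabetic libraries exceeded the non-diabetic mean, and the log2 fold change was 1.13 (SE 0.241, adjusted p = 0.00205). Pdk4 spread widely among the type 1 diabetic libraries, at 78.1, 141 and 409 CPM against 56.4, 112 and 182 CPM in non-diabetic infarcts, and 3 of the 8 lay below the non-diabetic mean. Its log2 fold change of 0.64 (SE 0.344) had an adjusted p of 0.182. Ucp3 had 0.71 (SE 0.369, adjusted p = 0.172), Cd36 0.34 (SE 0.138, adjusted p = 0.0754), Cpt1a 0.16 and Acot1 0.21. Plin5 and Fabp3 had negative values, -0.85 (SE 0.416, adjusted p = 0.145) and -0.42 (SE 0.397, adjusted p = 0.471). Beside these, 2 of the 20 cardiomyocyte markers fell in edgeR, 8 had an unadjusted p under 0.05, DESeq2 called 5 and limma-voom 10, and their median log2 fold change was -0.66. Of 10 fibroblast markers 6 fell, with a median of -0.48, and of 10 macrophage markers 6 rose, with a median of 0.29. The part of these cell types in the members' values was not tested beyond the cardiomyocyte term given further on. Without non-diabetic replicate 5, which had the lowest cardiomyocyte sum of its group, 4 of the 9 passed in type 1 diabetic infarcts: Angptl4, Cpt1a, Acot1 and Cd36. Without type 1 diabetic replicate 4, Cd36 passed at 0.38 (adjusted p = 0.0471) beside Angptl4, at 1.14.

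In type 2 diabetic against non-diabetic infarcts at day 7, Angptl4 and Pdk4 rose, 2 of the 9 genes, where a rise passed for 3.85% of all genes and a change in either direction for 7.35%. Angptl4 had 72.9, 139 and 178 CPM in type 2 diabetic against 22.1, 57.9 and 105 CPM in non-diabetic infarcts, a log2 fold change of 1.22 (SE 0.241, adjusted p = 0.00279). Replicate 2 was the low type 2 diabetic library, and the other 7 lay above every non-diabetic library. Pdk4 had 110.3, 225 and 498 CPM in type 2 diabetic against 56.4, 112 and 182 CPM in non-diabetic infarcts, a log2 fold change of 1.19 (SE 0.347, adjusted p = 0.0369). That call was lost in 8 of 24 fits that left out 1 library, where the value ran from 0.99 to 1.32 and adjusted p up to 0.0818: those without type 2 diabetic replicate 1, 3, 5, 6 or 8 or non-diabetic replicate 1, 2 or 3. Ucp3 had 3.16, 5.65 and 9.86 CPM in type 2 diabetic against 1.07, 2.89 and 5.14 CPM in non-diabetic infarcts. All 8 diabetic libraries exceeded the non-diabetic mean, yet the log2 fold change of 0.98 (SE 0.369) had an adjusted p of 0.103. It passed in the fit of these 2 groups alone, at 0.99 (adjusted p = 0.0333). Log2 fold changes of the other 6 genes ran from 0.03 to 0.34. Of 10 macrophage markers 5 rose, with a median of 0.36, and of 10 fibroblast markers 2 fell, with a median of -0.41. The part of these cell types in the members' values was not tested.

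Between type 1 and type 2 diabetic infarcts at day 7, 0 of the 9 genes passed, where 2.71% of all genes did. Plin5 alone had an unadjusted p under 0.05, at a log2 fold change of -1.01 (SE 0.414, adjusted p = 0.18). No member was called in this contrast by DESeq2 or limma-voom either. Angptl4 was close between the 2 groups, with 126 CPM as the median in type 1 and 139 CPM in type 2 diabetic infarcts.

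**Figure D2:**
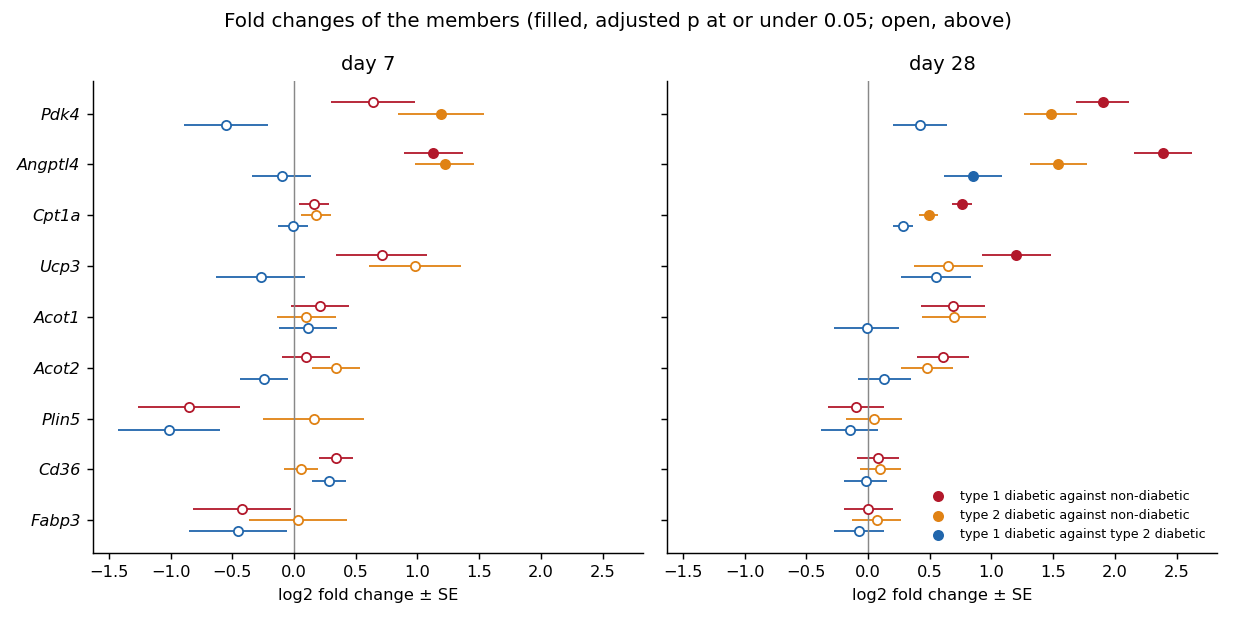
Log2 fold change of each gene with its standard error at day 7 (left) and day 28 (right), for type 1 diabetic against non-diabetic (red), type 2 diabetic against non-diabetic (orange) and type 1 against type 2 diabetic infarcts (blue); filled points passed an adjusted p of 0.05. The largest value is Angptl4 in type 1 diabetic infarcts at day 28, 2.39, and Plin5, Cd36 and Fabp3 have no filled point.

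The type 1 diabetic effect on 3 genes was larger at day 28 than at day 7, by a test of the difference in one fit of all 6 groups. The Angptl4 difference was 1.25 on the log2 scale (SE 0.343, adjusted p = 0.0106), with a type 1 diabetic log2 fold change of 2.39 at day 28 and 1.13 at day 7 in the fits of single days. The Pdk4 difference was 1.23 (SE 0.401, adjusted p = 0.0344), with 1.90 at day 28 and 0.64 at day 7. The Cpt1a difference was 0.59 (SE 0.138, adjusted p = 0.00295), with 0.76 at day 28 and 0.16 at day 7. In the same difference between days 6 of 10 fibroblast markers rose (median 0.65), 3 of 10 macrophage markers fell (median -0.18), 17 of 20 cardiomyocyte markers were positive (median 0.40), and 3 of the 15 PPAR receptors, partners and coregulators rose; the part of fibroblasts and macrophages in the 3 values was not tested. These differences passed in a setting where 12.5% of all genes did, 6.98% upward. For the type 2 diabetic effect 0 of 9 passed in edgeR or in DESeq2, where 1.51% of all genes did in edgeR, and 1 of them, Cpt1a, had an unadjusted p under 0.05, at a difference of 0.28 (SE 0.138, adjusted p = 0.312). The Angptl4 and Pdk4 differences there were 0.29 (SE 0.342) and 0.25 (SE 0.4). Non-diabetic infarcts, whose levels were not tested between days, had an Angptl4 median of 9.55 CPM at day 28 and 57.9 CPM at day 7, and a Pdk4 median of 208 CPM at day 28 and 112 CPM at day 7.

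The 9 genes were set against the cardiac muscle content of each library. Across the 24 libraries of day 7 and the 31 of day 28, log2 CPM of each gene was set against the mean log2 CPM of the 20 cardiomyocyte markers after each group's mean had been taken off both. These were 18 relations in all, with two-sided p-values from permutations within groups, adjusted over the 18 by Benjamini-Hochberg. Fabp3 followed it most closely, with Pearson's r of 0.97 at day 28 and 0.98 at day 7 and Spearman's rho of 0.95 and 0.97. Plin5 had r of 0.97 at day 28 and 0.86 at day 7, with rho of 0.93 and 0.91. For these 2 genes the permutation p of 1e-05 was the smallest the permutations can give, 3e-05 after adjustment. Cd36 had r of 0.94 and rho of 0.86 at day 28 (adjusted permutation p = 3e-05 for both), and r of 0.50 and rho of 0.51 at day 7 (adjusted permutation p = 0.026 and 0.023). Acot2 had r of 0.86 at day 28 and 0.65 at day 7, with rho of 0.80 and 0.77, and Ucp3 had r of 0.61 at day 28 and 0.68 at day 7, with rho of 0.59 and 0.73; all 8 adjusted permutation p-values were at or under 0.0036.

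Angptl4 showed no such relation that passed, at r of -0.28 and rho of -0.26 at day 28 (adjusted permutation p = 0.13 and 0.16) and r of -0.31 and rho of -0.29 at day 7 (adjusted permutation p = 0.084 and 0.16). Cpt1a ran the other way, with r of -0.54 and rho of -0.59 at day 28 (adjusted permutation p = 0.0025 and 0.0014) and r of -0.49 and rho of -0.40 at day 7 (adjusted permutation p = 0.0036 and 0.056). Pdk4 had r of 0.55 and rho of 0.39 at day 28 (adjusted permutation p = 0.0054 and 0.052), which rests on the 2 libraries farthest from the median, since r was 0.33 without them. At day 7 it had r of 0.37 and rho of 0.35 (adjusted permutation p = 0.12 and 0.14). Acot1 had r of 0.41 at day 28 and -0.28 at day 7, with rho of 0.48 and -0.07 (adjusted permutation p = 0.044 and 0.13 for r, 0.014 and 0.76 for rho). Leaving out the same 2 libraries gave r of 0.93 for Fabp3, 0.93 for Plin5, 0.86 for Cd36, 0.75 for Acot2, 0.51 for Ucp3, 0.29 for Acot1, -0.52 for Cpt1a and -0.28 for Angptl4 at day 28. At day 7 the corresponding r was 0.97 for Fabp3, 0.95 for Plin5, 0.42 for Cd36, 0.74 for Acot2, 0.67 for Ucp3, -0.25 for Acot1, -0.52 for Cpt1a, -0.33 for Angptl4 and 0.23 for Pdk4.

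**Figure D3:**
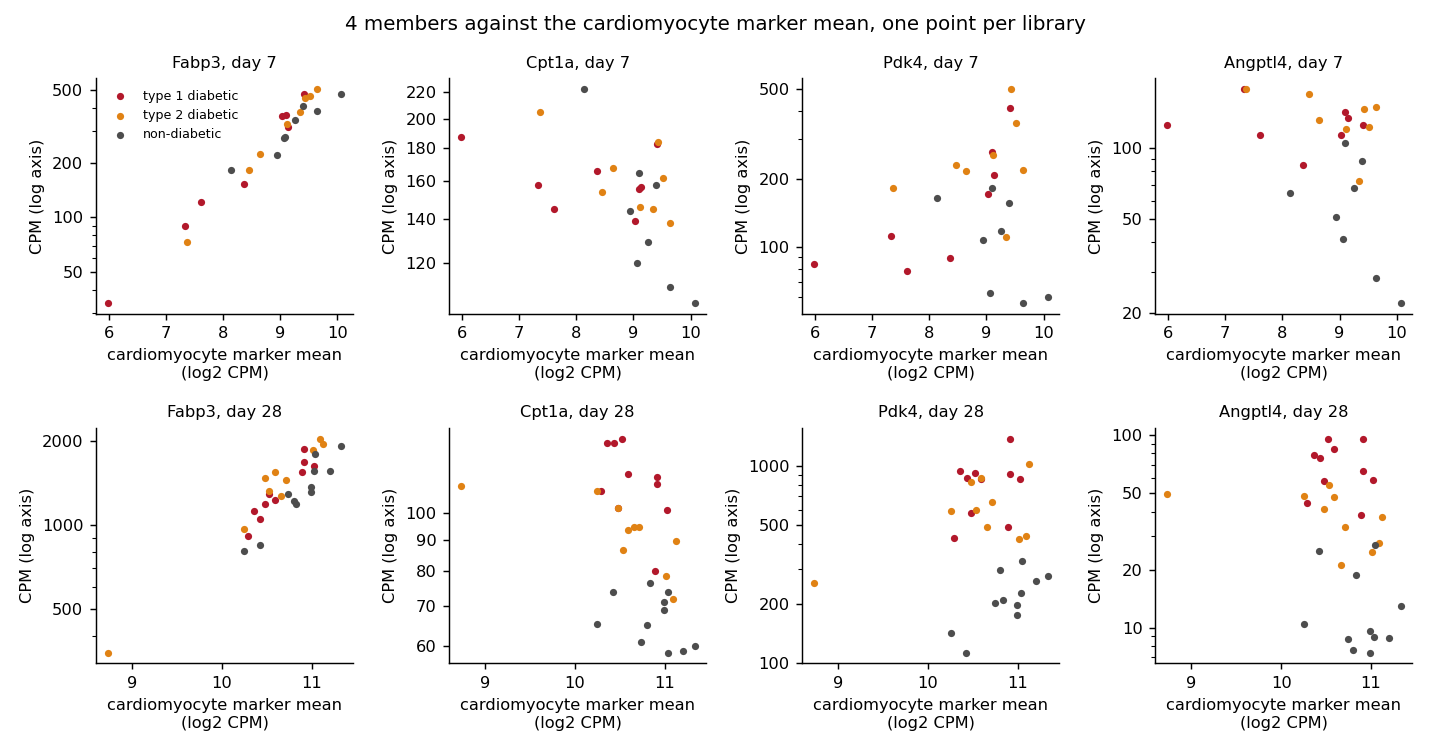
Level of 4 genes in CPM on a log axis against the mean log2 CPM of 20 cardiomyocyte markers, 1 point per library, at day 7 (top) and day 28 (bottom), coloured by group. Fabp3 follows the marker mean (r of 0.98 and 0.97 with group means removed), whereas type 1 diabetic and non-diabetic points of Pdk4 and Angptl4 stay apart at day 28.

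With the cardiomyocyte marker mean as a term of the fit, more of the genes passed at day 28. Fold changes from this fit are relative to the marker mean. At day 28 that mean was 10.64 ± 0.267 log2 CPM in type 1 diabetic, 10.52 ± 0.689 in type 2 diabetic and 10.88 ± 0.318 in non-diabetic infarcts (SD). It was thus lower in both diabetic groups, with spreads that overlap, and the term moves upward a gene that rises with it. At day 7 the mean was also lower, at 8.25 in type 1 and 8.94 in type 2 diabetic against 9.2 in non-diabetic infarcts. Single markers were tested, as given below. The mean itself was not tested, nor was the reason for its lower value. In type 1 diabetic against non-diabetic infarcts 8 of 9 passed upward, all but Plin5, where 4.79% of all genes did. In type 2 diabetic against non-diabetic infarcts all 9 passed upward, where 6.74% of all genes did. Fabp3 had a log2 fold change of 0.27 (adjusted p = 0.00218) in type 1 and 0.39 (adjusted p = 2.03e-05) in type 2 diabetic infarcts with the term, against 0.001 and 0.07 without it. Acot2 had 0.85 (adjusted p = 3.24e-05) and 0.79 (adjusted p = 6.49e-05) with the term, and Cd36 had 0.30 (adjusted p = 0.00417) and 0.37 (adjusted p = 0.000369). Plin5 had 0.20 (adjusted p = 0.0535) in type 1 and 0.39 (adjusted p = 0.000177) in type 2 diabetic infarcts. Ucp3 in type 2 diabetic infarcts had 1.01 (adjusted p = 0.00596). Without the term, 0 of the 20 cardiomyocyte markers passed at day 28 in edgeR, but all 20 had negative fold changes in both forms of diabetes, with median log2 values of -0.22 in type 1 and -0.28 in type 2 diabetic infarcts. In the type 1 comparison 3 had an unadjusted p under 0.05, DESeq2 called 2 and limma-voom 5. In the type 2 comparison 5 had an unadjusted p under 0.05 and both other tools called 0. With it, 4 of the 20 rose and 2 fell in type 1 and 2 rose in type 2 diabetic infarcts. At day 7 the term brought the count to 3 in type 1 diabetic infarcts, where Ucp3 at 1.10 (adjusted p = 0.00964) and Cd36 at 0.47 (adjusted p = 0.0151) joined Angptl4, against 8.96% of all genes. In type 2 diabetic infarcts of day 7 it brought Ucp3 to 1.10 (adjusted p = 0.0115) beside Angptl4 and Pdk4, against 4.96% of all genes.

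**Figure D4:**
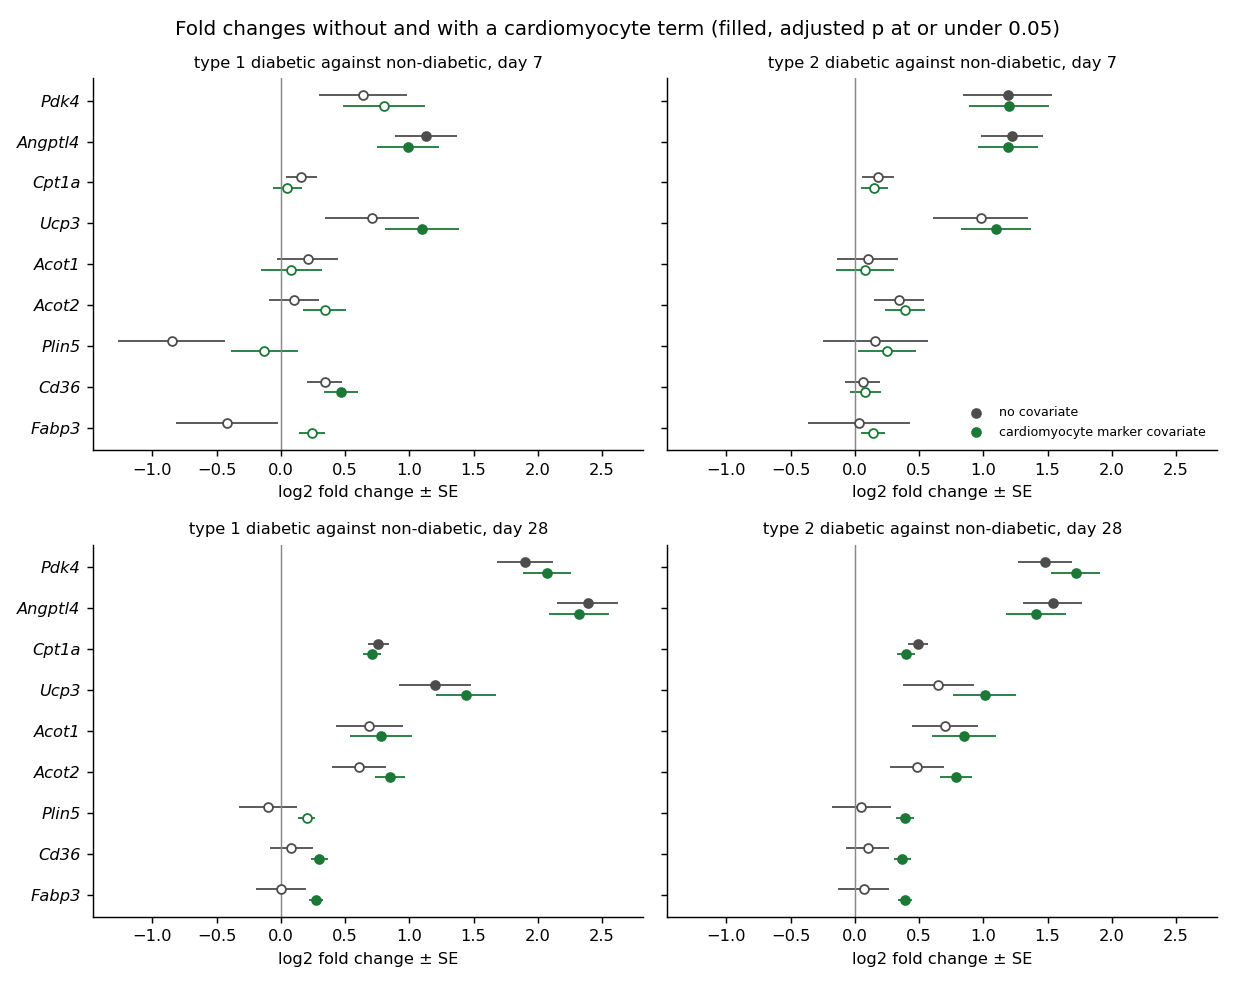
Log2 fold change with its standard error of each gene against non-diabetic infarcts, without (grey) and with (green) the cardiomyocyte marker mean in the fit; type 1 diabetic left, type 2 diabetic right, day 7 above day 28; filled points passed an adjusted p of 0.05. At day 28 the errors of Acot2, Plin5, Cd36 and Fabp3 shrink with the term and their values move upward, while Pdk4, Angptl4 and Cpt1a are filled in both fits.

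Across libraries, the genes whose levels were ordered most like those of Pdk4 were Ucp3, Upp1, Angptl4, Chac1 and Plin2, of 17112 genes ranked by the lower of the Spearman correlations within day 7 and day 28. The Spearman values with Pdk4 were 0.76 at day 28 and 0.83 at day 7 for Ucp3, and 0.81 and 0.65 for Angptl4. For Angptl4 the nearest were Plin2, Syk, Asb4, A730049H05Rik and Klf10, with Spearman values of 0.80 at both days for Plin2. Pdk4 ranked 9 for Angptl4, while Fabp3 and Plin5 ranked 8437 and 8701. These are descriptions over 24 and 31 libraries that share depth, group and cell makeup.

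Calls among the receptors and their coregulators differed between the comparisons. Ppara, Pparg and Ppargc1a, a coactivator of PPARs, passed in edgeR in none of the 6 comparisons within a day. Ppara had 4.9, 7.72 and 19.6 CPM in type 1 diabetic, 1.85, 8.18 and 16.6 CPM in type 2 diabetic and 6.52, 12.4 and 22 CPM in non-diabetic infarcts at day 28. Its log2 fold changes were -0.44 (SE 0.281, adjusted p = 0.404) for type 1 and -0.56 (SE 0.282, adjusted p = 0.21) for type 2 diabetic against non-diabetic infarcts. Pparg had 0.22 (adjusted p = 0.28) and 0.29 (adjusted p = 0.098) in the same comparisons. Of the 15 receptors, partners and coregulators, 0 rose and 3 fell in type 1 diabetic infarcts at day 7, where 22.5% of all genes passed: Ppard at -0.22 (adjusted p = 0.0311) and the PPAR partners Rxra at -0.26 (adjusted p = 0.0435) and Rxrb at -0.34 (adjusted p = 0.00387). At day 28, 0 of the 15 passed in edgeR in type 1 diabetic infarcts, where 4 had an unadjusted p under 0.05, DESeq2 called 0 and limma-voom 2. In type 2 diabetic infarcts at day 28, DESeq2 and limma-voom each called 4 of the 15. In edgeR, 1 of the 15 rose and 3 fell there, where 10.7% of all genes passed in either direction. Those that fell were the coactivators Ppargc1b, Ncoa1 and Med1, with log2 fold changes of -0.84, -0.25 and -0.21 (adjusted p = 0.0202, 0.0122 and 0.0434).

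Of 34 other PPAR targets tested at day 28, 4 rose and 0 fell in type 1 diabetic against non-diabetic infarcts, with a median log2 fold change of 0.11. A rise passed for 2.6% of all genes there. Ucp2, a mitochondrial carrier related to Ucp3, had 148, 185 and 278 CPM in type 1 diabetic against 71.6, 105 and 154 CPM in non-diabetic infarcts, a log2 fold change of 0.92 (adjusted p = 0.000506). Plin2, which coats lipid droplets in most cells, rose by 0.52 (SE 0.0721, adjusted p = 4.97e-05), and Fabp4, a fatty acid carrier of adipocytes, endothelium and macrophages, by 0.47 (adjusted p = 0.0275). Of 10 adipocyte markers, 0 passed in edgeR, DESeq2 or limma-voom, 1 had an unadjusted p under 0.05, and their median log2 fold change was -0.48. Their part in the Fabp4 value was not tested beyond a fit with the adipocyte marker mean as a term, whose Fabp4 value is not reported here. At day 7, type 1 diabetic replicate 4 was the highest library both in Fabp4, at 986 CPM, and in adipocyte markers.
Of the same 34, 4 also rose and 0 fell in type 2 diabetic against non-diabetic infarcts, with a median of 0.13. A rise passed for 7.21% of all genes there. Ucp2 rose by 1.19 (SE 0.149, adjusted p = 2.43e-06) and Plin2 by 0.50 (adjusted p = 1.92e-05). Creb3l3, a transcription factor known from liver, was low, at 0.109, 0.521 and 0.654 CPM in type 2 diabetic against 0.106, 0.211 and 0.365 CPM in non-diabetic infarcts, and rose by 0.94 (adjusted p = 0.0199). Macrophage markers rose with these in type 2 diabetic infarcts, 4 of 10 with a median of 0.43. In type 1 diabetic infarcts 0 of 10 passed in edgeR, DESeq2 or limma-voom or had an unadjusted p under 0.05. The part of macrophages in the Angptl4, Ucp2 and Plin2 values was not tested.
Relative to the cardiomyocyte marker mean as a term of the fit, 21 of the 34 passed upward and 0 downward in type 1 diabetic infarcts. In type 2 diabetic infarcts 24 passed upward and 0 downward, against the 4.79% and 6.74% of all genes given above. The marker mean was lower in both diabetic groups, and the term moves upward a gene that rises with it. How these 34 genes follow the marker mean was not tested, so the counts cannot be told apart from that lower mean. Between type 1 and type 2 diabetic infarcts at day 28, 0 of 34 passed in edgeR, DESeq2 or limma-voom, and 3 had an unadjusted p under 0.05.

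At day 7, 33 of the other targets were tested. In type 1 diabetic infarcts 1 rose and 1 fell, where 22.5% of all genes passed in either direction. Plin2 rose there by 0.62 (adjusted p = 0.0117) and Acaa1a, a peroxisomal thiolase, fell by 0.32 (adjusted p = 0.00565). In type 2 diabetic infarcts 2 rose and 0 fell, where 7.35% of all genes passed. Plin2 rose there by 0.74 (adjusted p = 0.0104) and Ucp2 by 0.61 (adjusted p = 0.0184). Of 10 macrophage markers, 6 rose in type 1 and 5 in type 2 diabetic infarcts at day 7. Their part in the Plin2 and Ucp2 values was not tested.

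**Figure D5:**
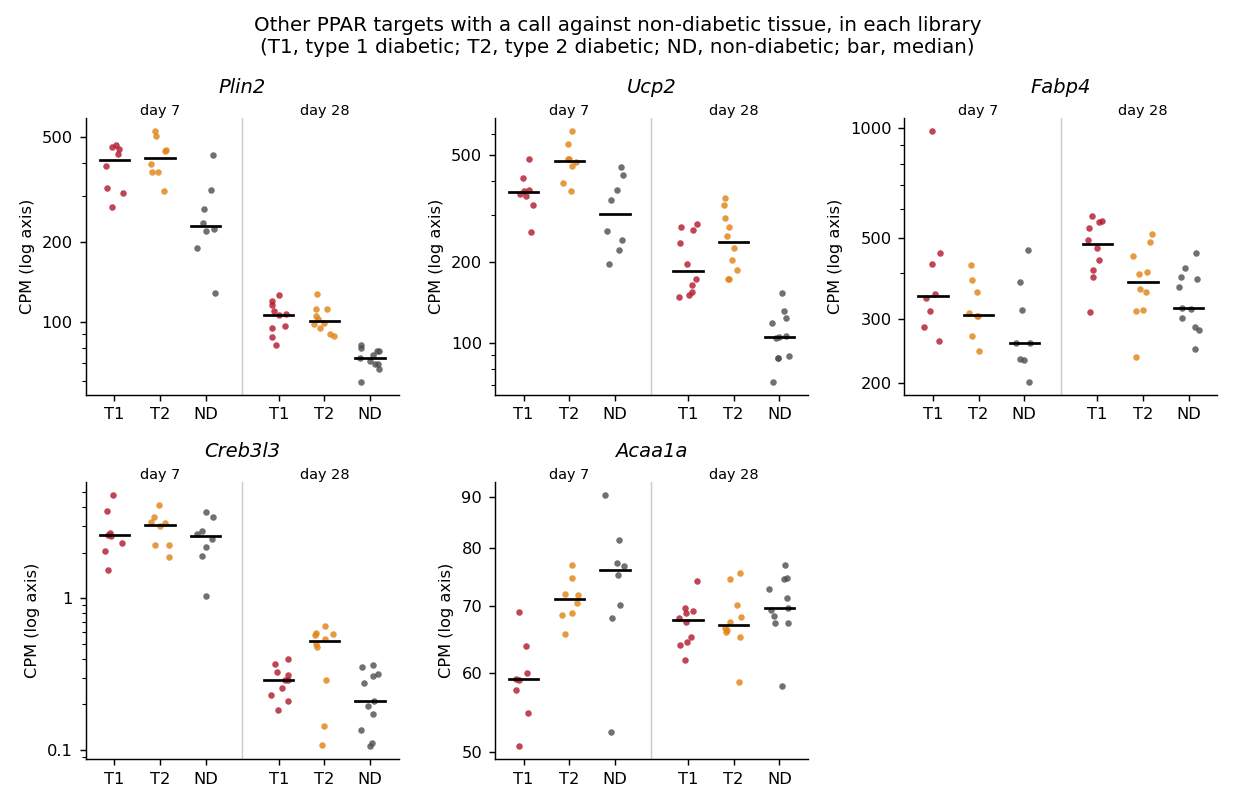
Level in every library, in CPM on a log axis, of the other PPAR targets named here, each of which passed a test against non-diabetic infarcts, laid out by group and day with medians as bars. The Plin2 medians of both diabetic groups lie above the non-diabetic median on both days, and at day 28 the Ucp2 log2 fold changes were 0.92 in type 1 and 1.19 in type 2 diabetic infarcts.

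Genes around PDK4 and ANGPTL4 were also counted. Among 11 genes of the pyruvate dehydrogenase switch, 10 had negative fold changes in each form of diabetes at day 28, with median log2 values of -0.24 in type 1 and -0.25 in type 2. In type 1 diabetic infarcts edgeR called 1, DESeq2 2 and limma-voom 6, and 5 had an unadjusted p under 0.05. Of all genes, edgeR called 4.02% in type 1 and 10.7% in type 2 diabetic infarcts at day 28. In edgeR, the phosphatase gene Pdp2 fell by 0.56 (adjusted p = 0.0285) in type 1 diabetic infarcts at day 28 and Pdp1 fell by 0.27 (adjusted p = 0.0224) in type 2 diabetic infarcts, and 0 rose in either. These phosphatases undo what PDK4 does. At day 7, 1 of the 11 passed in type 1 diabetic infarcts, where 22.5% of all genes did: the kinase gene Pdk2 fell by 0.87 (adjusted p = 0.0108). In type 2 diabetic infarcts at day 7, 0 of 11 passed in edgeR, DESeq2 or limma-voom while 2 had an unadjusted p under 0.05. Cardiomyocyte markers had median log2 values of -0.22 in type 1 and -0.28 in type 2 diabetic infarcts at day 28. At day 7 these were -0.66 and -0.23. Their part was not tested beyond the cardiomyocyte term, whose values for these 11 genes are not reported here. Of 6 tested genes around lipoprotein lipase, Gpihbp1, which holds the lipase on capillary endothelium, rose by 0.53 (adjusted p = 0.0315) in type 1 and 0.43 (adjusted p = 0.0464) in type 2 diabetic infarcts at day 28. Of 10 endothelial markers, 3 rose in type 2 diabetic infarcts in edgeR, DESeq2 and limma-voom called 3 each, and in type 1 diabetic infarcts 0 passed in edgeR or DESeq2, 2 in limma-voom and 3 at an unadjusted p under 0.05; their part in the Gpihbp1 values was not tested. Lpl itself had -0.32 (SE 0.187, adjusted p = 0.354) and -0.30 (SE 0.187, adjusted p = 0.317). Lmf1, a maturation factor of the lipase, fell by 0.39 (adjusted p = 0.00159) in type 1 diabetic infarcts at day 7.

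Genes of the same families as the other members showed scattered calls. Of all genes, 4.02% passed in either direction in type 1 and 10.7% in type 2 diabetic infarcts at day 28. At day 7 these shares were 22.5% and 7.35%. Of the acyl-CoA thioesterases, 7 were tested within each day. Among the acyl-CoA thioesterases, Acot11 fell on both days in type 1 diabetic infarcts, by 0.25 (adjusted p = 0.00937) at day 28 and 0.50 (adjusted p = 0.00167) at day 7, and by 0.28 (adjusted p = 0.00109) in type 2 diabetic infarcts at day 28. Acot7 rose by 0.26 (adjusted p = 0.023) in type 1 diabetic infarcts at day 28, and Acot9 and Acot4 rose by 0.36 (adjusted p = 0.000632) and 0.97 (adjusted p = 0.0123) at day 7. Hilpda, an inhibitor of the triglyceride lipase of lipid droplets, rose by 0.53 (adjusted p = 0.00608) in type 1 diabetic infarcts at day 7. Of 12 genes of lipid droplets and lipolysis, 2 rose there, where a rise passed for 11.1% of all genes. Of 11 genes of fatty acid uptake and binding, Fabp5 and Acsl4 rose in type 1 diabetic infarcts at day 7, by 0.70 (adjusted p = 0.000598) and 0.74 (adjusted p = 0.00426), and Acsl5 by 0.28 (adjusted p = 0.0438) in type 2 diabetic infarcts. The type 1 diabetic effect on Fabp5 and Acsl4 was smaller at day 28 than at day 7, with differences of -0.54 (adjusted p = 0.00854) and -0.63 (adjusted p = 0.0364). In that difference 12.5% of all genes passed in either direction. Macrophage markers also rose at day 7, 6 of 10 in type 1 and 5 of 10 in type 2 diabetic infarcts, and their part in these values was not tested.

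Libraries whose names begin with the same number may share a source, which the labels do not explain. Summing them left 4 to 6 sums a group. The directions against non-diabetic infarcts were kept for Pdk4, Angptl4, Cpt1a and Ucp3, but most calls ended: at day 28 Pdk4 had 1.77 (adjusted p = 0.0502), Angptl4 1.93 (adjusted p = 0.0522), Cpt1a 0.64 and Ucp3 1.04 in type 1 diabetic infarcts, where 6 genes in all passed. At day 28 only Pdk4 of the 9 still passed in type 2 diabetic infarcts, while Angptl4 had 1.15 (adjusted p = 0.0657) and Cpt1a 0.40. Of the calls at day 7, Angptl4 in type 1 diabetic infarcts held at 0.97 (adjusted p = 0.0332), and in type 2 diabetic infarcts Angptl4 had 0.95 (adjusted p = 0.143) and Pdk4 0.84 (adjusted p = 0.375).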

How the data were processed

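Raw counts by Ensembl gene identifier were deposited as 1 table a day. The submitters' processing notes name mm39 as the build and list DESeq2. The libraries were poly(A)-selected and stranded, per the labels' protocols, whereas which aligner, counter, strand setting and annotation were used is not given in the sources used here, so antisense overlaps cannot be separated. Of counts from 1 to 49, 76.4% at day 7 and 75.2% at day 28 were even, so totals may count both reads of a pair.

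Symbols and exon lengths came from GENCODE M21 by identifier, matching 51948 and 51880 identifiers with 99.34% and 99.58% of counts. Each comparison was fitted on all genes with edgeR 4.0.16 in R 4.3.3 (TMM, filterByExpr with minimum count 10 and total 15, quasi-likelihood, 3 groups of a day together, adjusted p at or under 0.05). The SE is the log2 fold change over the root of F. A fit of all 6 groups gave the differences between days. CPM used TMM-scaled library sizes, and relations used 100000 permutations. The scripts were tested on simulated data. DESeq2 1.42.0, limma 3.58.1 (voom with quality weights), RLE scaling, no filter, 2 groups only, the replicate block, a cardiomyocyte term, summed libraries and leave-one-out were alternatives; skeletal muscle and adipocyte terms were added after seeing the data. No library pair of a group agreed within sampling noise (lowest chi-square per gene 17.6).

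The members and lists were chosen with earlier results of these data known. Named genes were all members, Ppara, Ppard, Pparg and Ppargc1a, the 4 genes of smallest p in each other list, and the 5 genes most like Pdk4 and Angptl4. Some genes of these lists are counted but not reported here.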

Additional observations from a re-analysis of the deposited data

Results flagged for a closer look

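In 45 groups of 10 or fewer libraries, a library far from the rest of its group was looked for by Dixon's ratio, the gap to the nearest library over the group's range, which chance exceeds in about 1 of 20 groups. Angptl4 in type 2 diabetic replicate 2 at day 7 had a ratio of 0.567, at 72.9 CPM. Type 2 diabetic replicate 4 at day 28 was low for 3 genes, with ratios of 0.56 for Plin5 (13.4 CPM), 0.632 for Cd36 (351 CPM) and 0.578 for Fabp3 (348 CPM). That library also had the lowest cardiomyocyte marker sum of its group, 15454 CPM, and its part in these 3 values was not tested. The type 1 diabetic effect differed between day 28 and day 7 by 1.23 for Pdk4, 1.25 for Angptl4 and 0.59 for Cpt1a on the log2 scale, by the interaction test given above; day and sequencing project cannot be told apart.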

How the results depend on the processing

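Against non-diabetic infarcts, the rises of Pdk4, Angptl4 and Cpt1a at day 28 in both forms of diabetes, and that of Ucp3 in type 1, kept their calls under every alternative run except the summing of libraries, which left only that of Pdk4 in type 2; the Pdk4 call at day 7 and the Angptl4 contrast between the forms of diabetes did not. Where values changed, the cause was not tested, unless stated. Scaling by RLE in place of TMM moved the median of all genes by at most 0.013.
Fits without 1 library called 1 to 4 members in type 1 and 1 to 2 in type 2 diabetic against non-diabetic infarcts at day 7, and 0 to 2 between type 1 and type 2 at day 28. Calls that members gained in such fits are named in the paragraphs on each comparison above. Other log2 fold changes whose sign or call changed ran at day 7 from -0.06 to 0.17 for Acot2 in type 1. In type 2 diabetic infarcts of day 7 they ran from 0.99 to 1.32 for Pdk4, -0.01 to 0.41 for Acot1 and -0.09 to 0.18 for Fabp3. Cpt1a between type 1 and type 2 ran from -0.05 to 0.04. At day 28 they ran from -0.06 to 0.06 for Fabp3 in type 1, and from -0.06 to 0.17 for Plin5 and -0.01 to 0.18 for Fabp3 in type 2 diabetic infarcts. Between type 1 and type 2 at day 28 they ran from 0.78 to 0.92 for Angptl4, -0.30 to 0.08 for Acot1, -0.04 to 0.21 for Acot2 and -0.13 to 0.05 for Cd36. Genes called over all genes ran at day 7 from 3201 to 5345 in type 1 and 738 to 1975 in type 2 against non-diabetic infarcts and 157 to 1112 between type 1 and type 2, and at day 28 from 443 to 1163, 1588 to 2447 and 372 to 717.
Summing libraries left fewer samples. It called 0 members in type 2 at day 7, 0 in type 1 and 1 in type 2 diabetic infarcts at day 28, and 0 between type 1 and type 2 at day 28. Pdk4 had 0.84 in type 2 at day 7 and 1.77 in type 1 at day 28, and Angptl4 0.95 in type 2 at day 7, 0.01 between type 1 and type 2 at day 7, 1.93 in type 1 and 1.15 in type 2 at day 28 and 0.77 between them. Acot1 had -0.08 in type 2 at day 7 and Cpt1a 0.05 between type 1 and type 2 at day 7. Over all genes it called 1459 in type 1 (4087 in the reported fit), 176 in type 2 (1336) and 0 between them (492) at day 7, and 6 (759), 427 (2024) and 125 (607) at day 28.
No low-count filter left 0 members between type 1 and type 2 at day 28, with Angptl4 at 0.85, and called 823 genes in type 2 and 289 between type 1 and type 2 at day 7, 440 in type 1 and 403 between type 1 and type 2 at day 28, and 158 (308) for the type 2 difference between days. DESeq2 called Acot1 in type 2 at day 28 (0.69) and 2 members between type 1 and type 2 at day 28, put Fabp3 in type 1 at -0.0037, as RLE scaling did (also 2 members), and called 1058 genes between type 1 and type 2 at day 7, 1219 in type 1 and 1039 between type 1 and type 2 at day 28, and 638 for the type 2 difference. limma-voom called 2 members in type 1 at day 7 (Cd36 at 0.50 beside Angptl4), Acot2 in both forms at day 28 (0.53 in type 1, 0.55 in type 2) and 2 between type 1 and type 2 at day 28, with Fabp3 at -0.04 in type 1 and Acot2 at -0.02 between type 1 and type 2 at day 28, and 2927 genes between type 1 and type 2 at day 7 and 3025 in type 1 at day 28. Fits of 2 groups only put Fabp3 at -0.0049 in type 1 at day 28 called Ucp3 in type 2 at day 7 (0.99), and called 983 genes between type 1 and type 2 at day 7.
The cardiomyocyte term called 3 members in type 1 at day 7, 8 in type 1 and 9 in type 2 at day 28, and 2 between them, with Fabp3 at 0.24 in type 1 and 0.11 between type 1 and type 2 at day 7, Plin5 at 0.20 in type 1 at day 28 and 0.02 for its type 2 difference between days. It called 1494 genes in type 1 and 1219 between type 1 and type 2 at day 28, and 622 for the type 2 difference. The skeletal muscle term, added after seeing the data, called 1 member in type 2 at day 7, with Pdk4 at 1.16 (adjusted p = 0.0536), 0 between type 1 and type 2 at day 28, with Angptl4 at 0.80, put Fabp3 at -0.01 in type 1 at day 28, and called 1089 genes between type 1 and type 2 at day 7. The adipocyte term, also added, called 2 members between type 1 and type 2 at day 28 and put Fabp3 at -0.01 in type 2 and Acot1 at -0.003 between type 1 and type 2 at day 7.
Replicate numbers gave no pairing: correlations of same-numbered libraries ran from -0.42 to 0.37, fewer than all pairs exceeded 0.1 in every pair of groups, and in none did every library correlate best with its own number. With the replicate block, Ucp3 in type 2 at day 7 passed at 1.07 (adjusted p = 0.0494), no other member call changed, Fabp3 there was at -0.10, and 333 genes passed in type 1 and 375 between type 1 and type 2 at day 28. The Pdk4 relation to the marker mean at day 28 had an r of 0.33 without 2 libraries, against 0.55. Whether depth limited the calls of low genes such as Acot1 was not tested.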
